A study of Mus musculus with 18 samples.

Results

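Il10-/- bone marrow-derived macrophages (BMDMs) were treated with (+)-JQ1 or with recombinant IL-10 before LPS stimulation, and the 3 LPS + (+)-JQ1 libraries were compared directly with the 3 LPS + IL-10 libraries by ATAC-seq. These 6 libraries, of 18 in the series, were chosen by the treatment and stimulation given in their labels. Bone marrow came from 3 male Il10-/- mice on the C57BL/6J background, 12 weeks old, and was grown for 6 days in medium with L929-conditioned medium. The LPS + (+)-JQ1 group received 500 nM (+)-JQ1 for 12 hours and then 50 ng/mL LPS for 4 hours. The LPS + IL-10 group received 10 ng/mL IL-10 for 12 hours and then the same LPS. The other groups, with 3 libraries each, were unstimulated cells, (+)-JQ1 alone, IL-10 alone and LPS alone, which the labels call untreated and the methods a vehicle control. Whether the IL-10 cells also received vehicle is not stated in the sources used here. Every group lacks Il10, so the cytokine reached the cells only as the added recombinant protein, and the deletion itself could not be checked because each library carries it. The cells were cultured BMDMs and not tissue macrophages, and whether libraries with the same replicate number came from the same mouse is not stated in the sources used here.

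BET proteins bind acetylated lysines of histones through bromodomains and help to recruit P-TEFb, the kinase that releases paused RNA polymerase II. (+)-JQ1 occupies these bromodomains and displaces BET proteins from chromatin. IL-10 acts from the cell surface instead, through the Il10ra and Il10rb receptor chains, the kinases Jak1 and Tyk2 and the transcription factor Stat3, whose targets include Socs3, Bcl3, Nfil3, Sbno2 and Il1rn. LPS is sensed by Tlr4 and opens chromatin at sites of NF-kappaB, AP-1 and interferon-regulated factors in macrophages. ATAC-seq counts the cuts of a transposase in each region, and a higher count means more accessible DNA and not more transcription.

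Sequence around motif matches is shown first for peaks described below, 120 bases each from build mm9, none of them over an annotated exon. In these 4 peaks accessibility was higher with LPS + (+)-JQ1 than with LPS + IL-10. Capitals mark a match to the kappaB motif, or for Cd86 a match to the interferon-stimulated response element (ISRE, GAAANNGAAA on the opposite strand). The Brd2 match reads as a kappaB motif on both strands.
Brd2, chr17:34243305-34243424, plus strand: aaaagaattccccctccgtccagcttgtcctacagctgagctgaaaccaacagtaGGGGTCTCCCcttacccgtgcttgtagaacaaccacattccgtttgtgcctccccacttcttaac
Ciita, chr16:10498296-10498415, plus strand: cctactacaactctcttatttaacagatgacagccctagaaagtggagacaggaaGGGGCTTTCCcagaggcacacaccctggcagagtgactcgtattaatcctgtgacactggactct
Cxcl2, chr5:91335029-91335148, plus strand: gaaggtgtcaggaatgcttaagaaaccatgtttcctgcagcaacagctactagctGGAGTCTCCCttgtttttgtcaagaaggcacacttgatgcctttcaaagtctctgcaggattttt
Cd86, chr16:36602848-36602967, plus strand: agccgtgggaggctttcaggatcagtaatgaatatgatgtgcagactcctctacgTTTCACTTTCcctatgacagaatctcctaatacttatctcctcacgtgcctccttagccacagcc

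In the next 4 peaks accessibility was lower with LPS + (+)-JQ1 than with LPS + IL-10. Capitals mark the STAT motif TTCNNNGAA in the first 3, and a kappaB match in the peak assigned to Il4ra. The Il4ra peak is shown because its motif was more frequent among distal peaks of the opposite direction. The STAT motif was about as frequent in both directions, at 16.4% of the distal peaks called lower and 16.0% of those called higher.
Socs3, chr11:117826998-117827117, plus strand: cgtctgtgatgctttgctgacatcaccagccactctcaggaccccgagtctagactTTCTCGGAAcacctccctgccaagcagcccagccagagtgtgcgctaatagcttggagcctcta
Il1rn, chr2:24208268-24208387, plus strand: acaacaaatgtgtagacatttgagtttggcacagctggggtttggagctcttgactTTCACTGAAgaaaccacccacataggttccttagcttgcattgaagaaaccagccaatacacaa
Irg1, chr14:103459222-103459341, plus strand: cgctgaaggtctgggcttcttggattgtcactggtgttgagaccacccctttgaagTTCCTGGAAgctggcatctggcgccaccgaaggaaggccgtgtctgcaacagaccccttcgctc
Il4ra, chr7:132727329-132727448, plus strand: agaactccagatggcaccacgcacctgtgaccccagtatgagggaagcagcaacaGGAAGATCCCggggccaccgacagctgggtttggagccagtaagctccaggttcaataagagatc

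Total counts in peaks lay between 13619436 and 25908198 for the 6 libraries, and the shallowest was LPS + (+)-JQ1 replicate 1. On the second principal component of the 6 libraries, which held 12.8% of the variance, this library was at -26.7 and the other LPS + (+)-JQ1 libraries at 16.8 and 12.2. Replicate 1 of both groups was sequenced in lane 5 and replicates 2 and 3 in lane 6, so that lane and treatment were balanced. All 10 macrophage marker genes had a promoter peak. The mean normalized count of the 17 macrophage promoter peaks was between 326 and 402 per library, against 59.7 to 79.0 for the 5 B cell and 24.6 to 31.0 for the 2 mast cell promoter peaks. The peaks of T cell, neutrophil, erythroid and fibroblast genes were at 202 to 278, 216 to 292, 56.4 to 83.1 and 121 to 149, and all promoter peaks at 207 to 262. Among promoter peaks of these other cell types, 1 of 4 neutrophil peaks was called lower with LPS + (+)-JQ1 (25.0%, beside 3.29% of all). Of their distal peaks, 3 of 27 B cell (11.1%) and 1 of 11 erythroid peaks (9.09%) were called higher, beside 3.07% of all. Lower were 1 of 27 B cell (3.70%) and 1 of 25 T cell peaks (4.00%), beside 5.00% of all. The part of such cells in the results was not tested. In bulk libraries a change in the makeup of the cells and a change of accessibility per cell cannot be told apart.

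The first question was how far the chromatin of cells given a BET inhibitor differed from that of cells given IL-10 when both met LPS. A differentially accessible region (DAR) had an FDR below 0.05 in the quasi-likelihood F test of edgeR, adjusted after Benjamini and Hochberg over all tested peaks, and a |log2 fold-change| above 0.5. All adjusted p-values given with a fold-change are from this test. Of 194230 tested peaks, 6654 (3.43%) were higher and 9092 (4.68%) lower with LPS + (+)-JQ1 than with LPS + IL-10. Distal peaks were more often lower, with 7884 lower (5.00% of 157564) and 4832 higher (3.07%). Promoter peaks were more often higher, with 1822 higher (4.97% of 36666) and 1208 lower (3.29%). The size of the differences pointed the other way at promoters, since 340 of the lower promoter DARs but only 188 of the higher ones exceeded 1 on the log2 scale. At distal peaks 3635 lower and 1938 higher DARs exceeded this size. Of the variance among the 6 libraries, 72.9% lay on the first principal component, which placed the LPS + (+)-JQ1 libraries between 28.7 and 38.7 and the LPS + IL-10 libraries between -36.8 and -31.0. The groups did not overlap in normalized counts at 93.6% of the higher and 94.9% of the lower DARs, against 13.2% and 13.0% of all tested peaks in each direction.

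The excess of lower over higher DARs at distal peaks held under every alternative run, with 25.7% to 43.1% of distal DARs higher. The promoter split did not hold. Of promoter DARs 60.1% were higher with TMM scaling, but 36.0% with scaling to total counts (907 higher, 1611 lower), 40.8% with loess offsets, 45.9% with GC offsets, 24.2% when the promoter table was fitted alone and 24.6% in a test against the fold-change threshold. It fell to 47.3% without replicate 2 of both groups (754 higher, 841 lower). The number of higher promoter DARs was 1073 without LPS + (+)-JQ1 replicate 2, 966 without LPS + IL-10 replicate 3 and 1847 without LPS + (+)-JQ1 replicate 1, the library that stood apart. Higher promoter DARs had a median GC content of 54.0% and a median normalized count of 472, lower promoter DARs 47.7% and 128, and all tested promoter peaks 50.1% and 90.6. The log2 ratio of distal to promoter counts was 0.21, 0.12 and 0.23 in the LPS + (+)-JQ1 libraries and 0.36, 0.38 and 0.44 in the LPS + IL-10 libraries. The groups did not overlap, and the mean ratio was lower with LPS + (+)-JQ1 by 0.21 (two-sided exact permutation p = 0.1, the smallest possible with 3 against 3 libraries). Whether this ratio or GC content sets the promoter split was not tested.

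**Figure D1:**
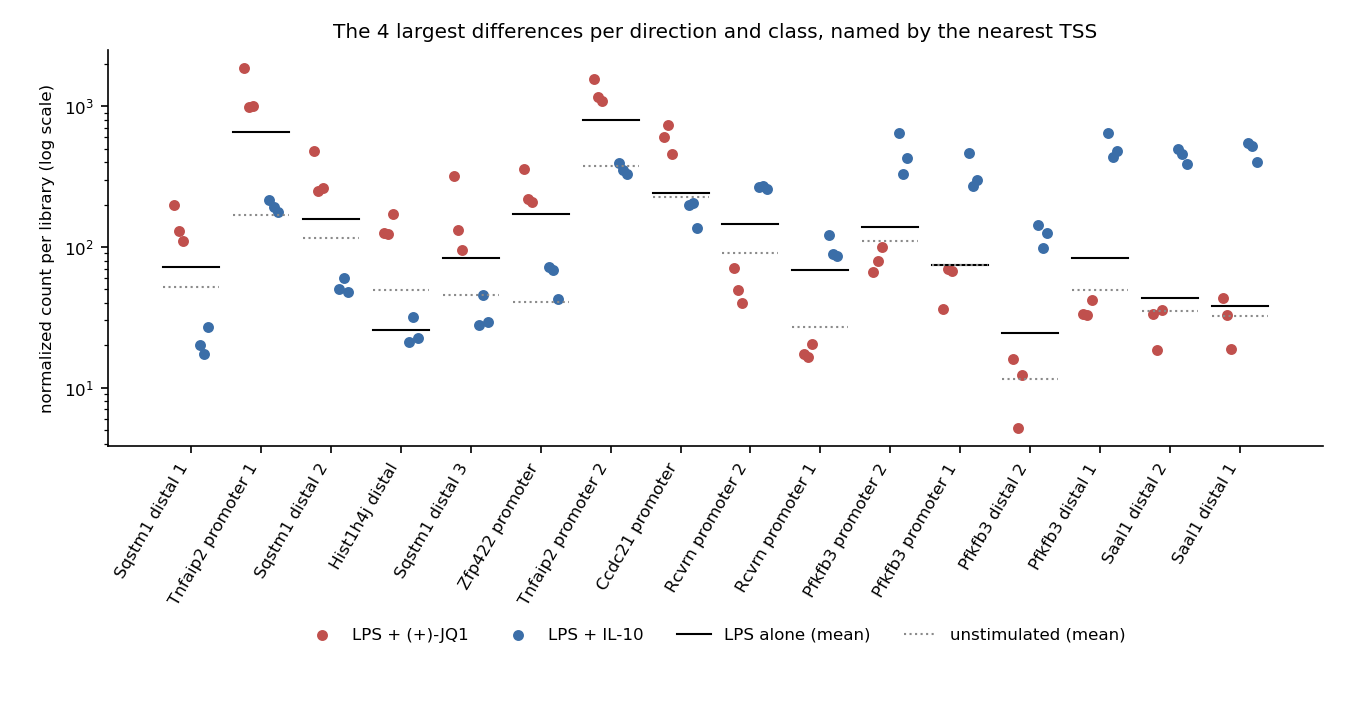
Normalized count per library (log axis) at 16 peaks, the 4 with the largest differences per direction among promoter and among distal peaks, ordered from the highest to the lowest log2 fold-change, with points for the 3 libraries of each treatment and lines for the mean of LPS alone and of unstimulated cells. The LPS + (+)-JQ1 points lie above every LPS + IL-10 point at the 8 peaks on the left and below every one at the 8 peaks on the right. This separation follows largely from how the peaks were chosen.

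The largest differences in favour of LPS + (+)-JQ1 lay at Tnfaip2, an NF-kappaB target that encodes a membrane-remodelling protein, and beside Sqstm1, which encodes the autophagy receptor p62. The Tnfaip2 promoter peak at chromosome 12, 112688276 to 112692115, covers coding exons and UTR. It had normalized counts of 1856, 994 and 996 in the LPS + (+)-JQ1 libraries and of 216, 192 and 176 in the LPS + IL-10 libraries. The groups were far apart, although LPS + (+)-JQ1 replicate 1 was well above the other replicates. The log2 fold-change was 2.71 ± 0.16 (SE, adjusted p = 3.82e-28). With LPS alone the count was 656 ± 80.7 (SD, n = 3), so the peak was above LPS alone with (+)-JQ1 (log2 fold-change 0.96) and below it with IL-10 (-1.76). The adjoining Tnfaip2 peak, 0.896 kb from the TSS, differed by 1.82 ± 0.14 (adjusted p = 3.45e-20).

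Beside Sqstm1, 3 neighbouring distal peaks within the gene 3010026O09Rik differed by 2.72, 2.64 and 2.38 on the log2 scale. At the tallest, chromosome 11, 50007288 to 50008907, LPS + (+)-JQ1 libraries had 482, 250 and 262 and LPS + IL-10 libraries 50.6, 59.9 and 47.5 normalized counts. No library of either group reached the range of the other (log2 fold-change 2.64 ± 0.19, adjusted p = 6.40e-22). As at Tnfaip2, LPS + (+)-JQ1 was above LPS alone (log2 fold-change 1.04) and LPS + IL-10 below it (-1.60). The peak nearest to Zfp422, a zinc finger protein gene, was classed as promoter, with its centre 1.77 kb past the nearest coding TSS. It had 358, 218 and 210 counts with LPS + (+)-JQ1 and 72.5, 68.6 and 42.3 with LPS + IL-10 (log2 fold-change 2.09 ± 0.20, adjusted p = 5.37e-15). The peak classed as promoter nearest to Ccdc21 was higher by 1.74 ± 0.18 (adjusted p = 5.09e-13), though 9.72 kb from the nearest coding TSS of the annotation used here. A histone cluster peak, 6.31 kb from the TSS of Hist1h4j, was high with (+)-JQ1 whether or not LPS was added. It had 125, 124 and 171 counts with LPS + (+)-JQ1, 21.0, 31.6 and 22.4 with LPS + IL-10, a mean of 25.7 with LPS alone and of 170 with (+)-JQ1 alone.

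The largest differences in the other direction lay at Saal1, next to the serum amyloid A genes, and at Pfkfb3, whose enzyme drives glycolysis through fructose 2,6-bisphosphate. The Saal1 intronic peak at chromosome 7, 53962488 to 53964108, had 43.3, 32.8 and 18.9 counts with LPS + (+)-JQ1 and 543, 525 and 402 with LPS + IL-10. The LPS + (+)-JQ1 libraries lay around or below the mean of LPS alone (38.1 ± 7.84, SD, n = 3) and of unstimulated cells (32.2), and only the LPS + IL-10 libraries stood high. The difference was -4.04 ± 0.22 on the log2 scale (adjusted p = 1.29e-29), and a second Saal1 peak differed by -3.92 ± 0.21 (adjusted p = 3.10e-30). Of LPS + IL-10 against LPS alone the intronic peak's log2 fold-change was 3.67, while LPS + (+)-JQ1 against LPS gave -0.37 (adjusted p = 0.53).

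Near Pfkfb3, 2 distal peaks and 2 peaks classed as promoter had log2 fold-changes between -3.82 and -2.49. Those classed as promoter lay 13.1 and 9.91 kb from the nearest coding TSS of the annotation used here. The intergenic peak 25.2 kb from the TSS, at chromosome 2, 11389251 to 11391626, had 33.2, 32.8 and 42.2 counts with LPS + (+)-JQ1. With LPS + IL-10 it had 650, 433 and 478, and the groups did not approach each other (log2 fold-change -3.82 ± 0.19, adjusted p = 5.65e-32). Both members of the pair at Rcvrn, which encodes a calcium sensor of photoreceptors, were also lower with LPS + (+)-JQ1. The wider of these peaks had 70.7, 49.2 and 40.1 counts against 267, 269 and 257 (log2 fold-change -2.36 ± 0.19, adjusted p = 2.35e-19). Unlike at Saal1, LPS + (+)-JQ1 was below LPS alone (146 ± 6.16) and LPS + IL-10 above it.

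Many DARs lay in long stretches of one direction. Stretches of at least 6 DARs of the same direction with neighbouring starts no more than 20 kb apart, a description chosen after the values were seen, numbered 197 for lower and 72 for higher DARs. They held 29.9% of all lower and 12.0% of all higher DARs. A DAR of the opposite direction lay inside 4 of the lower stretches and 1 of the higher ones. The lower stretch with the most DARs covered Pid1, which encodes an adaptor protein linked to insulin signalling, where 101 of 109 tested peaks over 286 kb were lower with LPS + (+)-JQ1. Summed over all 109 peaks, the LPS + (+)-JQ1 libraries had 7594, 6959 and 7018 normalized counts and the LPS + IL-10 libraries 18276, 17262 and 16877. The LPS + (+)-JQ1 sums were close to unstimulated cells (7388) and the LPS + IL-10 sums well above LPS alone (10134), a 2.43-fold difference between the treatments.

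Other lower stretches differed in where LPS alone stood. At Aoah, whose acyloxyacyl hydrolase detoxifies LPS, 55 of 56 peaks were lower, with sums of 2036, 1853 and 1984 with LPS + (+)-JQ1 and of 7457, 6509 and 6792 with LPS + IL-10. LPS alone had 6158 ± 324 (SD, n = 3) and unstimulated cells 2005 ± 496 there, so the LPS + IL-10 libraries were slightly above LPS alone and the LPS + (+)-JQ1 libraries at the level of unstimulated cells. At March1, a ubiquitin ligase gene that acts on MHC class II and CD86, 40 of 42 peaks were lower. LPS alone (3343) and LPS + (+)-JQ1 (3353 ± 82.8) were close to each other there, and LPS + IL-10 (8106 ± 643) was well above both. The stretch over Bst1 and Cd38, which encode NAD-consuming ectoenzymes, held 60 lower of 83 peaks. The stretch over Il4ra and Il21r held 36 of 65.

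The higher stretch with the most DARs lay at Alcam, an adhesion molecule gene, with 59 higher of 111 peaks, sums of 8824, 5360 and 4851 with LPS + (+)-JQ1 and of 3669, 3092 and 3082 with LPS + IL-10. LPS + (+)-JQ1 replicate 1 was again the highest there. The higher stretches described next were picked after their values were seen. At Nfkb1, which encodes the p105 and p50 NF-kappaB subunits, 35 of 40 peaks in the stretch with Manba were higher. The sums were 11986, 8860 and 8796 with LPS + (+)-JQ1 and 6246, 5608 and 5083 with LPS + IL-10. The means of LPS alone and unstimulated cells were 11675 and 4407, so that LPS + (+)-JQ1 replicate 1 was just above LPS alone and all other libraries lay between these means. At Il15, a cytokine that sustains natural killer and memory T cells, 31 of 34 peaks were higher, at 6372 ± 580 against 3456 ± 377 summed counts. The stretches over Rel (18 of 23) and over Ripk2 (20 of 25), the kinase of Nod receptor signalling, were higher by 1.92-fold and 1.75-fold in the summed counts.

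**Figure D2:**
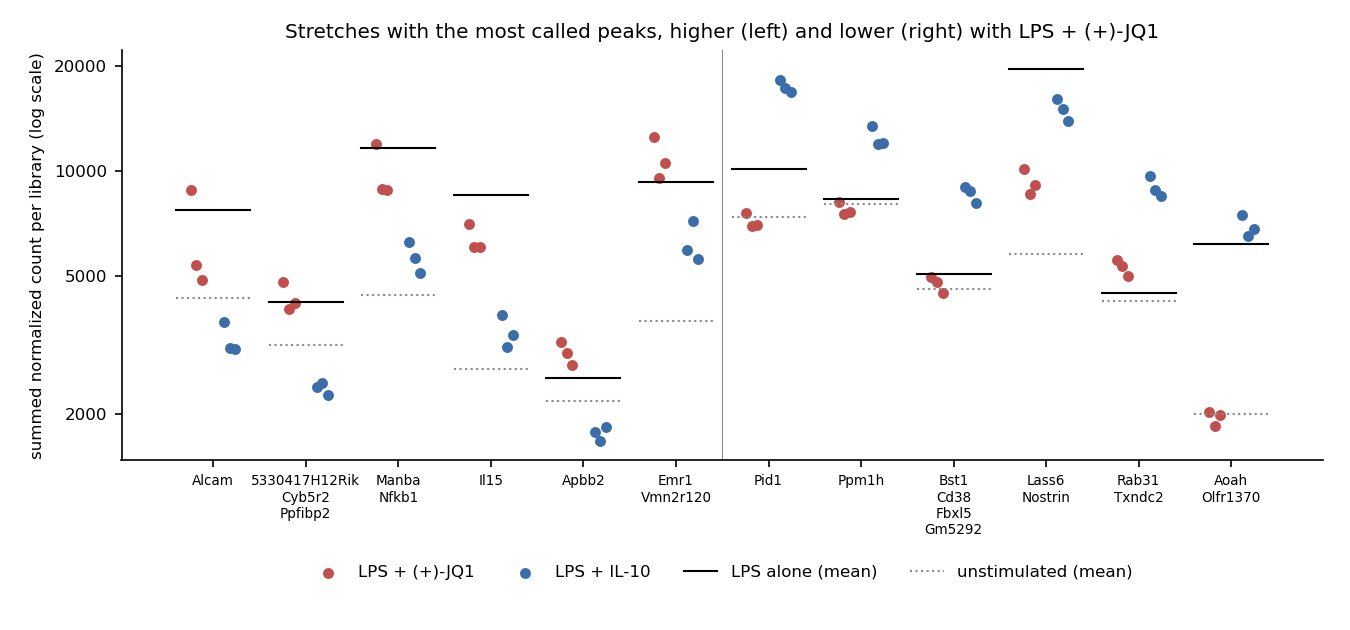
Summed normalized count per library (log axis) over all tested peaks of the 6 stretches with the most higher DARs and the 6 with the most lower DARs, labelled by the genes nearest to the DARs, with lines for the means of LPS alone and unstimulated cells. The 3 LPS + (+)-JQ1 points lie above the LPS + IL-10 points in each higher stretch and below them in each lower stretch, which follows from how the stretches were chosen, and at Aoah they sit at the unstimulated mean.

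Gene lists were read against the share of DARs among all tested peaks, with the promoter peaks that overlapped the window from 1000 bases before to 100 bases after a TSS and the distal peaks within 25 kb of one. Counts of 5 or fewer called peaks in a list were unstable, since 16 of 19 such counts moved by over 1.5 times under at least 1 alternative. Larger counts were not all stable either, as 11 of the 24 counts over 5 moved by as much. Among NF-kappaB and AP-1 factors, 11 of 37 promoter peaks were higher and none lower, and 48 of 302 distal peaks were higher and 21 lower. The shares of 29.7% and 15.9% higher stand beside 4.97% and 3.07% of all tested promoter and distal peaks. The 6.95% lower at distal peaks stand beside 5.00% of all. The median log2 fold-change of the list was 0.28 at promoters and -0.00 at distal peaks, against 0.08 and -0.02 over all tested peaks. Nfkb1 alone supplied 6 of the higher promoter and 23 of the higher distal peaks, and Atf3, a stress-induced transcription factor gene, 1 promoter and 10 distal ones. Rel, Jun, Nfkbib and Tnfaip3 each added 1 promoter peak. The higher promoter count was 8 with GC offsets, 6 with total counts and 5 with loess offsets or without LPS + IL-10 replicate 3.

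The Nfkb1 peak with the smallest FDR, 13.7 kb from the TSS, had 1243, 701 and 755 counts with LPS + (+)-JQ1 and 404, 331 and 321 with LPS + IL-10. The groups were apart (log2 fold-change 1.34 ± 0.14, adjusted p = 1.54e-12), and LPS alone had 1122 ± 41.1. A coding peak of Rel differed by 1.46 ± 0.14 (adjusted p = 1.26e-14), and an intergenic peak within 25 kb of Atf3, though nearer to Fam71a, by 1.69 ± 0.17 (adjusted p = 1.15e-13). Fosl2, an AP-1 subunit gene, went the other way. All 9 of its DARs among 20 distal peaks were lower, the one with the smallest FDR with 90.8, 94.3 and 112 counts against 429, 388 and 362 (log2 fold-change -1.97 ± 0.15, adjusted p = 1.32e-19). At this peak LPS + (+)-JQ1 was slightly under LPS alone (124 ± 18.2) and LPS + IL-10 well over it.

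Toll-like receptor pathway genes had 9 higher (24.3%) and 2 lower (5.41%) of 37 promoter peaks, beside 4.97% and 3.29% of all. They had 13 higher (5.26%) and 25 lower (10.1%) of 247 distal peaks, beside 3.07% and 5.00% of all. Irak2 supplied 3 of the higher promoter peaks, and Tlr2, Tlr4, Tlr9, Cd14, Myd88 and Ticam1 1 each. The Tlr2 promoter peak, at the start of the receptor gene for bacterial lipopeptides, had 642, 665 and 543 counts with LPS + (+)-JQ1 and 325, 295 and 312 with LPS + IL-10. The groups were separate by a wide margin (log2 fold-change 0.98 ± 0.14, adjusted p = 3.51e-08), and LPS alone, at 356 ± 42.1, was near the LPS + IL-10 libraries. The Tlr9 promoter differed by 0.85 ± 0.14 (adjusted p = 4.68e-06). Irak3, which encodes the inhibitory kinase IRAK-M, had lower DARs and no higher one, with 16 lower of 28 distal and 2 lower of 4 promoter peaks. With loess offsets 3, and without LPS + IL-10 replicate 3, 4 of the list's promoter peaks were higher. At distal peaks 7 were higher without LPS + (+)-JQ1 replicate 1, and 15 were lower without LPS + (+)-JQ1 replicate 2 or without LPS + IL-10 replicate 1.

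**Figure D3:**
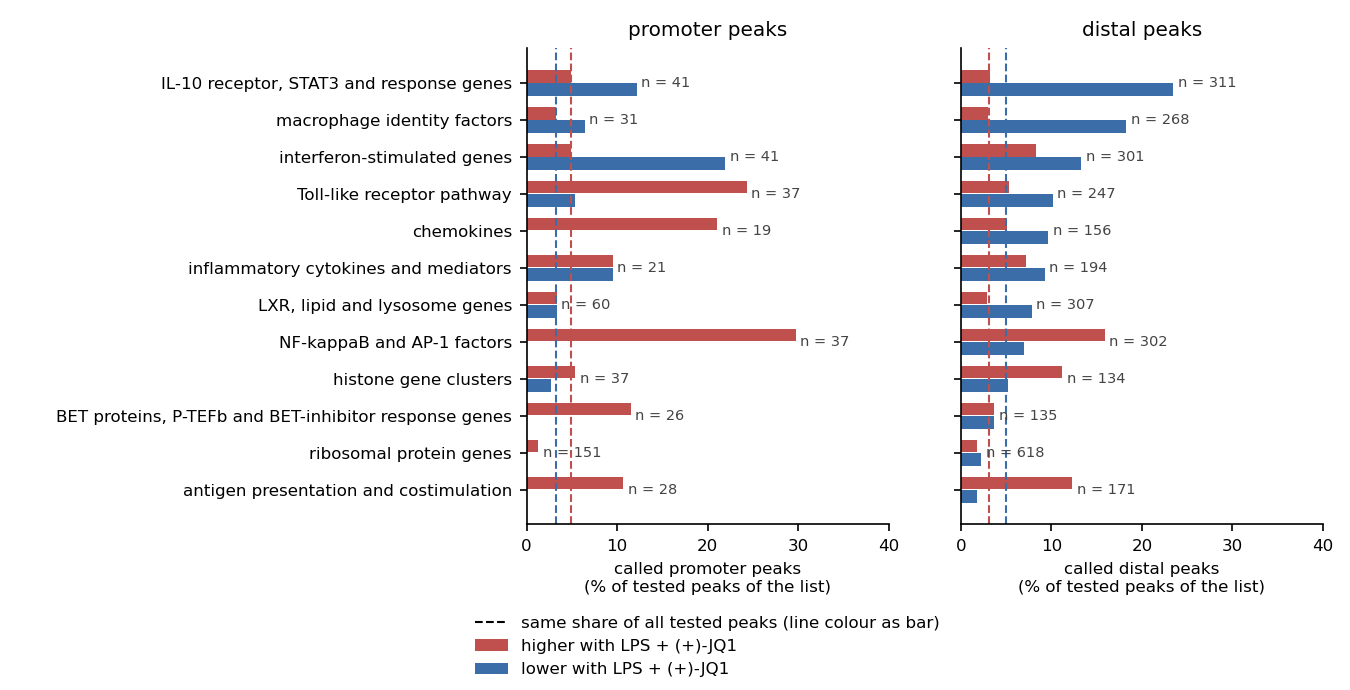
Share of tested peaks of each gene list that were higher (red) or lower (blue) with LPS + (+)-JQ1 than with LPS + IL-10, for promoter peaks on the left and distal peaks on the right, with n the tested peaks. Dashed lines mark the same shares over all tested peaks (4.97% and 3.29% at promoters, 3.07% and 5.00% at distal peaks), and the longest bars are the IL-10 and STAT3 genes at lower distal peaks and the NF-kappaB and AP-1 factors at higher promoter peaks.

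Genes of the IL-10 receptor, STAT3 and the IL-10 response were lower with LPS + (+)-JQ1 at distal peaks, 73 of 311 (23.5%, against 5.00% of all). They were higher at 10 (3.22%, against 3.07%). At promoters 5 of 41 peaks were lower (12.2%) and 2 higher (4.88%), against 3.29% and 4.97% of all. Lower distal DARs lay at 14 of the 20 genes, with 11 at Socs3, the feedback inhibitor of cytokine receptors, 10 at Il4ra, 8 at Il10rb and 6 each at Il1rn, Sbno2, Stat3 and Ddit4. The median log2 fold-change of the list's distal peaks was -0.21, and against LPS alone it was 0.02 for LPS + (+)-JQ1 and 0.28 for LPS + IL-10. Tyk2 and Pim1 were the exceptions, with 7 and 3 higher distal DARs and no lower one. Of distal peaks with at least 50 mean normalized counts 30.9% of the list's were lower, beside 9.61% of all.

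The Il4ra distal peak, 19.1 kb from the TSS of this interleukin 4 receptor gene, had 254, 189 and 224 counts with LPS + (+)-JQ1 and 1314, 1172 and 890 with LPS + IL-10. LPS + (+)-JQ1 was near LPS alone (263 ± 9.67), and the groups were far apart (log2 fold-change -2.35 ± 0.15, adjusted p = 1.23e-25). Without LPS the same difference was -2.65 (adjusted p = 3.6e-28). The Il1rn peak, by the gene of the IL-1 receptor antagonist, behaved otherwise. It had 93.7, 72.8 and 75.0 counts against 366, 252 and 350 (log2 fold-change -2.02 ± 0.17, adjusted p = 1.59e-17), below LPS alone with (+)-JQ1 (-1.35) and above it with IL-10 (0.67). The promoter peak assigned to Il10rb, which lies over exons of the neighbouring Ifnar2, had a log2 fold-change of -1.25 (adjusted p = 6.14e-11), and the Sbno2 peak, within the gene of a STAT3-induced corepressor, had a log2 fold-change of -1.06 (adjusted p = 6.38e-10).

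At the Socs3 locus 13 of 27 tested peaks were lower with LPS + (+)-JQ1 and none higher, beside 4.68% lower and 3.43% higher of all tested peaks. The distal peak 3.37 kb past the TSS, which holds the STAT motif shown above, had 832, 422 and 450 counts with LPS + (+)-JQ1 and 1256, 1202 and 1102 with LPS + IL-10. Every LPS + IL-10 library was above every LPS + (+)-JQ1 library, and LPS alone had 612 and unstimulated cells 125 (log2 fold-change -1.08 ± 0.14, adjusted p = 7.12e-09). The peak over the TSS itself did not pass the test, with 1347, 1154 and 1115 counts against 1192, 1120 and 910 (log2 fold-change 0.16, adjusted p = 0.51). The Il12b locus, of the p40 subunit shared by IL-12 and IL-23, had 1 higher and 1 lower DAR among 18 peaks, too few to tell from the shares over all tested peaks. The higher one, 17.4 kb before the TSS, had 130, 87.2 and 95.4 counts against 41.0, 49.0 and 38.8 (log2 fold-change 1.26 ± 0.21, adjusted p = 5.57e-06). The lower one, 14.8 kb past it, had a log2 fold-change of -0.61 (adjusted p = 0.0032), and the Il12b promoter peak one of 0.36 (adjusted p = 0.11).

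**Figure D4:**
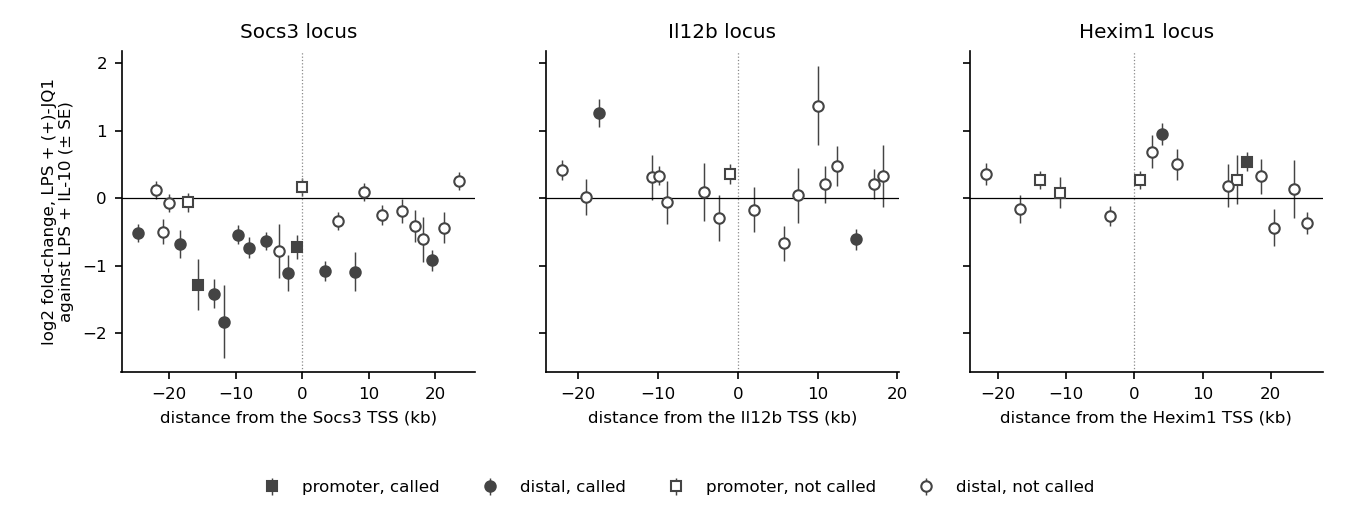
Log2 fold-change of LPS + (+)-JQ1 against LPS + IL-10 with its SE for each tested peak near Socs3, Il12b and Hexim1, against the distance of the peak centre from the TSS in kb, with positive distances downstream, squares for promoter and circles for distal peaks, and filled symbols for DARs. At Socs3 the 13 filled symbols are all below 0, while Il12b has 1 on each side and Hexim1 has 2 above 0.

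Inflammatory cytokine genes had DARs in both directions, with 14 higher (7.22%) and 18 lower (9.28%) of 194 distal peaks, beside 3.07% and 5.00% of all. Among 21 promoter peaks there were 2 of each (9.52%), beside 4.97% higher and 3.29% lower of all. Without LPS + (+)-JQ1 replicate 1 the higher distal count was 9. A peak over exons of Il1b, the gene of interleukin 1 beta, had 121, 33.8 and 56.1 counts with LPS + (+)-JQ1 and 301, 213 and 202 with LPS + IL-10. Both treatments were below LPS alone (536 ± 50.2), and (+)-JQ1 further so (log2 fold-change between the treatments -1.84 ± 0.20, adjusted p = 2.82e-12). A peak within 25 kb of Irg1, whose enzyme makes itaconate, and peaks of Ptgs2 (cyclooxygenase 2) and of Nos2 (inducible nitric oxide synthase) were lower too, with log2 fold-changes of -1.34, -1.53 and -1.03. Il15 supplied 9 of the 14 higher distal peaks, and Tnf 2. Among chemokine genes 4 of 19 promoter peaks were higher (21.1%, beside 4.97% of all), none of which remained without LPS + (+)-JQ1 replicate 1. Of 156 distal peaks 8 were higher (5.13%) and 15 lower (9.62%), beside 3.07% and 5.00% of all. The 8 higher ones became 5 with total counts or without LPS + (+)-JQ1 replicate 2 and 4 without LPS + IL-10 replicate 3. The distal peak beside Cxcl1 and Cxcl2, neutrophil chemokine genes, was higher by 1.14 ± 0.19 (adjusted p = 5.47e-06), while one near Ccl3 and Ccl4 had -0.93 ± 0.15 (adjusted p = 6.91e-07). The Cxcl2 counts of 356, 163 and 129 with LPS + (+)-JQ1 varied widely, against 102, 94.7 and 88.9.

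Interferon-stimulated genes divided by locus. Distal peaks were higher at 25 (8.31%) and lower at 40 (13.3%) of 301, beside 3.07% and 5.00% of all. Promoter peaks were higher at 2 (4.88%) and lower at 9 (21.95%) of 41, beside 4.97% and 3.29% of all. The lower promoter peaks were all 3 of Oas2, all 3 of Oasl1 and 3 of 7 of Ddx58, genes of the antiviral response. The Oas2 distal peak had 53.4, 64.6 and 62.6 counts with LPS + (+)-JQ1 and 361, 377 and 362 with LPS + IL-10. LPS + IL-10 was somewhat below LPS alone (437 ± 5.87) and LPS + (+)-JQ1 below unstimulated cells (84.0), with a log2 fold-change of -2.59 ± 0.16 (adjusted p = 4.99e-25). Igtp, an interferon-inducible GTPase gene, had a peak with -1.47 ± 0.16 (adjusted p = 3.34e-12). Higher distal DARs of the list lay mainly at Gbp2, a guanylate-binding protein gene (9 of 17), and over the neighbours Rsad2 and Cmpk2 (8 each, of 16 and 18), whose 25 kb windows share peaks.

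Antigen presentation and costimulation genes had 21 higher (12.3%) and 3 lower (1.75%) of 171 distal peaks, beside 3.07% and 5.00% of all. They had 3 higher (10.7%) and 0 lower of 28 promoter peaks, beside 4.97% and 3.29% of all. The higher distal peaks lay at 6 of the 16 genes. Cd40, the receptor for T cell help, supplied 9 of the distal peaks, Icosl 5 and Ciita, the master regulator of MHC class II genes, 3. The class II genes H2-Aa, H2-Ab1, H2-Eb1, H2-DMa and H2-DMb1 had no DAR, nor had Tap1, Psmb8 and Psmb9. Cd74 had 1 lower distal peak, and B2m 1 higher promoter and 1 higher distal peak. The Icosl peak had 221, 180 and 153 counts with LPS + (+)-JQ1 and 88.8, 57.7 and 58.7 with LPS + IL-10, both below LPS alone (271 ± 25.3). The difference was 1.41 ± 0.18 (adjusted p = 1.92e-09). The Cd40 peak was higher by 1.07 ± 0.19 (adjusted p = 1.44e-05), although it was far below LPS alone under both treatments (443 ± 52.6, against means of 155 and 71.3). An intronic Ciita peak had 219, 192 and 177 counts with LPS + (+)-JQ1 and 110, 58.8 and 93.2 with LPS + IL-10 (adjusted p = 1.05e-06). The Cd86 peak, by the gene of a costimulatory ligand, differed by 1.61 ± 0.34 (adjusted p = 3.91e-04) at low counts of 36.4 to 46.1 against 9.54 to 20.7.

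Macrophage identity genes were lower at 49 of 268 distal peaks (18.3%, beside 5.00% of all) and higher at 8 (2.99%, beside 3.07%). Itgam, which encodes CD11b, supplied 27 of the lower ones among its 39 peaks. The 8 higher ones became 5 with total counts or without LPS + (+)-JQ1 replicate 2. The Itgam peak with the smallest FDR had 160, 171 and 172 counts with LPS + (+)-JQ1 and 386, 439 and 401 with LPS + IL-10 (log2 fold-change -1.28 ± 0.14, adjusted p = 1.43e-11). Fcgr1, the high-affinity IgG receptor gene, had a peak with 326, 370 and 354 counts against 1745, 1476 and 1438, which did not overlap (log2 fold-change -2.15 ± 0.14, adjusted p = 9.30e-25). LPS alone was at 1168 ± 113 there. The same peak falls within 25 kb of Hist2h2bb and 2 other histone genes. Peaks of Maf and Cebpb, transcription factor genes of the macrophage lineage, had log2 fold-changes of -1.17 and -1.03. At promoters 1 of the 31 tested peaks of the list was higher (3.23%) and 2 were lower (6.45%), beside 4.97% and 3.29% of all.

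BET, P-TEFb and BET-inhibitor response genes had 3 higher (11.5%) of 26 promoter and 5 higher and 5 lower (3.70% each) of 135 distal peaks, beside 4.97%, 3.07% and 5.00% of all. The promoter count was 1 with GC offsets, with loess offsets and without LPS + IL-10 replicate 3. Brd2, a BET protein gene, had 1 promoter and 3 distal DARs, all higher. Its distal peak with the kappaB match had 226, 236 and 234 counts with LPS + (+)-JQ1 and 79.2, 70.8 and 67.3 with LPS + IL-10. The replicates were tight and the groups far apart (log2 fold-change 1.68 ± 0.17, adjusted p = 3.32e-13), and (+)-JQ1 was above LPS alone (89.5 ± 18.2). A peak over a UTR of Hexim1, the P-TEFb inhibitor gene used as a marker of BET inhibition, had 242, 239 and 189 counts against 132, 114 and 98.4 (log2 fold-change 0.95 ± 0.17, adjusted p = 1.16e-05). Of the lower peaks the Ccr1 chemokine receptor peak had the smallest FDR (log2 fold-change -1.86 ± 0.24, adjusted p = 1.98e-09).

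LXR, lipid and lysosome genes had 9 higher (2.93%, beside 3.07% of all) and 24 lower (7.82%, beside 5.00%) of 307 distal peaks. Of the lower ones 7 lay at Abca1, the cholesterol exporter gene. Among 60 promoter peaks 2 were called in each direction (3.33%, beside 4.97% higher and 3.29% lower of all). The higher distal count was 2 with total counts, and the lower one 14 without LPS + IL-10 replicate 2. The Abca1 peak had 64.9, 123 and 114 counts against 229, 276 and 140 (log2 fold-change -1.05 ± 0.17, adjusted p = 2.48e-06). Lpl, the lipoprotein lipase gene, was higher instead, at its promoter by 0.72 ± 0.13 (adjusted p = 2.13e-05) and at 3 of 5 distal peaks. Histone cluster genes had 15 higher (11.2%) and 7 lower (5.22%) of 134 distal peaks, beside 3.07% and 5.00% of all. Ribosomal protein genes, which most cells keep active, had 2 higher and 0 lower of 151 promoter and 11 higher and 14 lower of 618 distal peaks, under the share of all peaks in each case. The distal counts were 3 higher and 24 lower with total counts, 6 higher with DESeq2, 7 higher with only the groups compared, 4 to 6 higher without LPS + (+)-JQ1 replicate 1 or 3 or without any 1 LPS + IL-10 library, and 8 lower without LPS + IL-10 replicate 3.

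The next question was whether (+)-JQ1 and IL-10 left the LPS response at different levels. At the threshold of 0.5, LPS alone against unstimulated cells had 17553 higher (11.1%) and 17343 lower (11.0%) distal peaks and 5237 higher (14.3%) and 2459 lower (6.71%) promoter peaks. Of these, peaks beyond 1 on the log2 scale were taken as LPS-opened or LPS-closed. The contrast of LPS alone with unstimulated cells left out the 6 libraries, though they entered the filter, scaling and estimate of spread of the same fit. Lane was not balanced in that contrast, since replicate 2 was sequenced in lane 5 for unstimulated cells and in lane 6 for LPS alone. Mean log2 accessibility was scaled so that unstimulated cells were at 0 and LPS alone at 1. Over the 8807 LPS-opened distal peaks the LPS + (+)-JQ1 libraries stood at 0.715, 0.545 and 0.529 and the LPS + IL-10 libraries at 0.683, 0.548 and 0.612. The groups overlapped (difference -0.02, two-sided exact permutation p = 0.8). Over the 1317 LPS-opened promoter peaks the means were 0.634 ± 0.072 and 0.638 ± 0.066 (SD, n = 3, exact permutation p = 1.0). At 9883 LPS-closed distal peaks the LPS + (+)-JQ1 libraries stood at 0.729 ± 0.072 and the LPS + IL-10 libraries at 0.811 ± 0.060, and the groups overlapped (exact permutation p = 0.3, with 0.1 the smallest possible). Without LPS, (+)-JQ1 alone already stood at 0.422, 0.420 and 0.418 at these closed peaks, and IL-10 alone at 0.456, 0.412 and 0.454. The LPS-closed positions are therefore not the part of the closing by LPS that remained. At LPS-opened distal peaks both agents alone stood between -0.024 and 0.046.

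**Figure D5:**
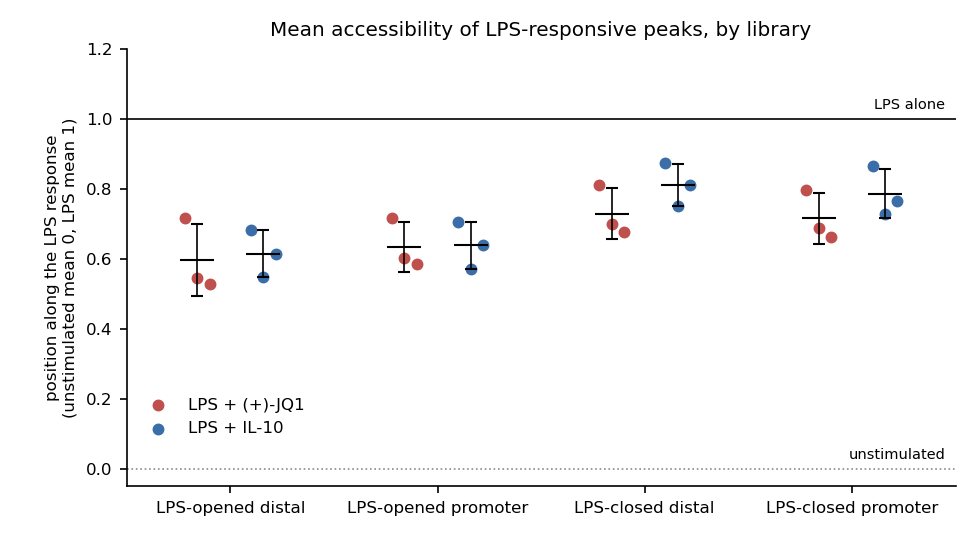
Position of each library along the LPS response (mean log2 accessibility, unstimulated mean 0 and LPS mean 1) for peaks opened or closed by LPS, with points for libraries and the mean and SD of each group. The groups overlap in each of the 4 peak sets, and LPS + (+)-JQ1 replicate 1 is the highest LPS + (+)-JQ1 point in each.

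The overlapping averages held differences in both directions. Of the 8807 LPS-opened distal peaks, 1013 (11.5%) were higher and 1159 (13.2%) lower with LPS + (+)-JQ1 than with LPS + IL-10. Of the 9883 LPS-closed distal peaks, 317 (3.21%) were higher and 253 (2.56%) lower. At the 122668 distal peaks not called with LPS the lower DARs were 5184 (4.23%) and the higher 2579 (2.10%). LPS-opened promoter peaks had 141 higher (10.7%) and 167 lower (12.7%) of 1317. Over all 5237 promoter peaks opened by over 0.5 the order turned, with 639 higher (12.2%) and 369 lower (7.05%). Against LPS alone, LPS + (+)-JQ1 had 3378 higher (1.74%) and 6770 lower (3.49%) peaks, and LPS + IL-10 had 8275 higher (4.26%) and 8768 lower (4.51%), and both sets share the LPS libraries.

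Distal DARs in the 2 directions also differed in sequence, searched on both strands in the central 500 bases of each peak. The ISRE lay in 12.9% of higher and 6.53% of lower distal DARs, and in 7.44% of all tested distal peaks. The kappaB motif lay in 11.7%, 7.74% and 8.64%, and the AP-1 motif TGANTCA in 24.6%, 20.5% and 19.3%. STAT matches were about as frequent in higher (16.0%) as in lower distal DARs (16.4%), beside 14.7% of all. ETS (GGAAGT) and E-box (CACGTG) matches lay in 39.4% and 6.27% of higher, 38.0% and 5.90% of lower and 36.6% and 6.76% of all distal peaks. Within LPS-opened distal peaks the ISRE lay in 20.4% of the higher and 7.85% of the lower DARs, beside 15.1% of all 8807, and the kappaB motif in 17.9% and 8.97%, beside 13.1%. These shares are descriptions, higher and lower distal DARs had like median widths (1200 and 1345 bases) and GC contents (44.5% and 44.9%), and the motifs can overlap one another. With GC offsets the ISRE shares of distal DARs were 12.8% and 6.60%. Promoter DARs differed from distal ones, with AP-1 matches in 10.9% of the higher and 15.0% of the lower, STAT matches in 10.4% and 16.1% and kappaB matches in 15.6% and 10.4%. With GC offsets these promoter shares were 15.2% and 13.1%, 13.0% and 14.5%, and 12.4% and 12.7%.

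Lastly, the same comparison was made in cells without LPS, between libraries outside the LPS comparison, though all entered the same fit. There 1978 peaks (1.02%) were higher and 2855 (1.47%) lower with (+)-JQ1 alone than with IL-10 alone. Of the 6654 peaks higher with LPS, 710 were also higher without it, which is 10.7% of these and 35.9% of the 1978. Of the 9092 lower ones 1240 were also lower without LPS, 13.6% of these and 43.4% of the 2855. Of promoter DARs with LPS, 90.9% of the higher and 81.4% of the lower had the same sign without it, beside 67.7% of all tested promoter peaks. For distal DARs these shares were 73.7% and 74.9%, beside 58.2% of all tested distal peaks. Over both classes the median log2 fold-changes of higher and lower DARs were 0.77 and -0.94 with LPS and 0.28 and -0.26 without it. Across all tested peaks the 2 sets of log2 fold-changes had r = 0.36 for 36666 promoter and r = 0.23 for 157564 distal peaks, which are not independent replicates. The difference between (+)-JQ1 and IL-10 itself changed with LPS, by the interaction term of the same fit, at 2199 peaks, of which 823 (0.424%) rose and 1376 (0.708%) fell. The Il4ra, Brd2 and Itgam peaks did not pass this test, with interaction log2 fold-changes of 0.30, 0.50 and -0.07, whereas the Nfkb1 and Il1rn peaks passed with 1.59 and -2.12 (adjusted p = 7.1e-08 and 3.6e-08).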

How the data were processed

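ATAC-seq libraries of 6 groups with 3 replicates each were analysed, 18 in all. Per the labels and methods, the authors aligned uniquely mapped 50-base read pairs to mm9 with bowtie2 in PEPATAC, called peaks per library with MACS2 and classed them as promoter or distal with ChIPSeeker. The tool that counted reads is not given in the sources used here. The deposited values are raw counts per peak of each library, with no normalization and no pooling, in a table of all 194284 peaks. Another 6 columns match no sample and were not used. Whether peak starts count from 0 or 1 is not stated, and coordinates are printed as deposited.

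Counts were filtered with filterByExpr, scaled by TMM and fitted for all 6 groups by the quasi-likelihood test of edgeR 4.0.16 (R 4.3.3), with Benjamini-Hochberg adjustment over 194230 peaks. The study used DESeq2, run here as an alternative (1.42.0). The SE of a fold-change was taken from the test statistic. A normalized count is a count divided by the relative effective library size. Genes, TSSs and sequence came from GENCODE vM1 and its mm9 genome. The fit was tested on simulated data. Alternatives covered the test, scaling, GC offsets, filter, replicate block, lane, tables fitted separately, a stricter FDR and each replicate left out. Intervals and p-values cover the spread between these libraries.

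Named peaks were those with an FDR below 0.05, a |log2 fold-change| above 0.5, at least 50 mean normalized counts and one direction in all 3 pairs of same-numbered libraries that had the 4 largest fold-changes per direction and class. The up to 4 called peaks per gene list with the smallest FDR, 1 per gene, and all peaks within 25 kb of the Il12b, Socs3 and Hexim1 TSSs were added. The comparison and gene lists were chosen with earlier results of these data known, and genes named only for their counts of DARs or their stretches were chosen after their values were seen. Gene symbols that vM1 lacks were matched through RefSeq synonyms.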

Additional observations from a re-analysis of the deposited data

Results flagged for a closer look

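Peaks were listed here where the difference between (+)-JQ1 and IL-10 with LPS differed from that without LPS by the interaction term in edgeR's quasi-likelihood fit (FDR below 0.05), and 2199 of all tested peaks passed with an interaction |log2 fold-change| above 0.5 as well. Among the peaks with the largest differences, the interaction log2 fold-changes of the Tnfaip2 promoter peaks were 2.32 and 1.39, that of Zfp422 was 2.34 and that of Ccdc21 was 1.26. The 3 distal peaks beside Sqstm1 had 2.30, 2.01 and 2.09. The Pfkfb3 peaks classed as promoter had -1.90 and -2.37, the distal ones -3.34 and -2.73, the wider Rcvrn peak -1.76 and the Saal1 peaks -2.65 and -3.26. The Hist1h4j peak did not pass, with 0.97 (adjusted p = 0.099), nor did the narrower Rcvrn peak, with -1.68 (adjusted p = 0.054). These peaks were chosen for their size with LPS, which bears on a comparison with the libraries without LPS.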

How the results depend on the processing

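Of the named peaks, all 116 kept their direction and side of the threshold under the replicate block and without LPS + (+)-JQ1 replicate 1, and at most 5 fell under the threshold in any other setting run. Replicate numbers are shared between the groups, but no label ties a number to a mouse. After each group mean was subtracted, libraries that share a number correlated across peaks at 0.041, 0.022 and 0.033, against -0.047 to 0.015 for different numbers, and each library correlated best with its own number, a hint from the data only. The replicate block moved 1 list count by over 1.5 times, lower promoter DARs of the LXR, lipid and lysosome genes (1 in place of 2), and left all others within that, with 1797 higher and 1220 lower promoter DARs and 4818 and 7882 distal ones, and DESeq2 gave 1694, 1087, 4040 and 6843. Higher promoter DARs numbered 907 with total counts, 890 with loess offsets, 1125 with GC offsets, 1105 with GC offsets and the replicate block, and 670 with the tables fitted separately, where lower ones numbered 2101. A glmTreat test against the fold-change threshold gave 82 higher and 252 lower promoter and 647 and 1766 distal DARs, and without LPS 66 higher and 318 lower peaks, with 342 interactions. At an FDR of 0.01, distal DARs numbered 2654 higher and 4746 lower, those without LPS 872 and 1468, and interactions 884. With total counts the peaks without LPS were 1238 higher and 4478 lower. Leaving out a library, or a replicate number of both groups, gave 754 to 2696 higher and 745 to 1124 lower promoter DARs, 2738 to 4377 higher and 4442 to 6915 lower distal DARs, and 1144 to 2000 interactions. Without replicate 1, 2 or 3 of both groups, higher distal DARs numbered 3148, 2738 and 2768, lower ones 4986, 4799 and 4442 and interactions 1144, 1550 and 1160, lower promoter DARs numbered 745 without replicate 3, and interactions 1298 without LPS + IL-10 replicate 1. The differences in position along the LPS response, all without a passed test, changed with setting. At LPS-opened distal peaks they were -0.077 to 0.016 with a library left out, the lowest without LPS + (+)-JQ1 replicate 1, and -0.078 with total counts. At LPS-opened promoter peaks they were -0.045 to 0.029 with a library left out, 0.13 with peaks opened by over 0.5, -0.051 as a median over peaks and -0.065 with total counts. At LPS-closed promoter peaks they were -0.11 to -0.031 with a library left out, -0.10 as a median and -0.011 with total counts, and at LPS-closed distal peaks -0.024 with total counts. On the first principal component lay 44.1% of the variance over all peaks and 48.1% with log2 CPM, with the groups still separate. The share of LPS-opened promoter peaks lower with LPS + (+)-JQ1 was 7.05% with peaks opened by over 0.5. The cause of these changes was not tested. Fragment lengths, duplicates and reads outside peaks were not analysed here, and counts per peak limit what low peaks can show.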
